A study of Mus musculus with 6 samples.

Results

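The genes described here are 9 astrocyte genes, Gfap, Aqp4, S100b, Aldh1l1, Slc1a2, Slc1a3, Aldoc, Gja1 and Fabp7, of the 21938 protein-coding genes that GENCODE M21 places on assembled mouse chromosomes. They were chosen by name, as genes whose products mark astrocytes or the astrocyte-like neural stem cell. For each gene, every open-chromatin peak that overlapped the gene body or 50 kb on either side of it was taken from 6 lists of ATAC-seq peaks. Peaks of the 6 lists that overlapped by at least 1 bp were merged, which gave 137 regions in the 9 windows of 120143 regions in all. ATAC-seq marks open chromatin by the sites at which a transposase can insert adapters, and it does not measure expression. In a culture of mixed cells, a site open in more cells and a site more open in each cell cannot be told apart.

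Neural stem cells were cultured from the subependymal zone (SEZ), a germinal layer of the adult mouse brain, and were profiled while proliferating and at the onset of differentiation. All 6 libraries carry the same genotype, a homozygous CRISPR-Cas9 deletion of Srr2, an enhancer of the stem cell factor Sox2 (Srr2 del/del). The mice were 10 weeks old. The 3 PROLIF libraries (replicates 1, 2 and 4) came from cells plated on Matrigel for 2 days in vitro (2 DIV) in medium with FGF. The 3 DIFF libraries (replicates 1, 2 and 4) came from cells kept 1 further day without mitogens in medium with fetal bovine serum (2+1 DIV). The series' own design text gives 3 DIV for the proliferating cells where the sample labels give 2 DIV. The deletion is germline, so every cell lacks Srr2. No library of wild-type cells was analysed here, so each comparison is between states of the mutant culture. The cultures were described as independent biological replicates, and the labels do not say whether libraries with the same number came from the same culture.

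Astrocytes support neurons by clearing glutamate and potassium, by moving water and by linking into a network through gap junctions. The neural stem cell of the adult SEZ is itself a cell of the astrocyte lineage and uses many of the same genes, among them Gfap, Slc1a3 and Fabp7. Serum, and cytokines that act through STAT3, are known to drive cultured neural stem cells towards astrocytes, and NFI factors and SOX9 act in the same direction.

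The lists held 60006 to 88039 peaks and covered 26.2 to 36.3 Mb. DIFF replicate 4 had the longest list and the highest background, a pileup of 6.01 reads against 2.85 to 3.63 in the others at the first percentile of peaks, as solved from each peak's fold enrichment and p-value. The numbers that the peak names carry for their input data fell into a lower range (PROLIF replicates 1 and 4, DIFF replicate 1) and a higher range (PROLIF replicate 2, DIFF replicates 2 and 4), and differences were also taken within each. The neural stem cell markers Sox2, Nes, Olig2, Egfr and Hes1 had a promoter peak (3 kb or less from an annotated start) in every library. This held for 3 of 8 myelin genes, 4 of 6 neuron genes, 2 of 8 microglia genes and 2 of 6 endothelial genes. The microglial genes Ptprc, Cx3cr1, Itgam and Trem2 and the endothelial genes Cdh5, Cldn5 and Tek had none in any library. Open chromatin at a promoter does not show that a gene was transcribed.

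All 9 genes had a promoter peak, within 3 kb of one of their annotated starts, in all 6 libraries. Among all protein-coding genes this was so for 64.4%. Within 1 kb of a start, 7 of the 9 genes had a peak in all libraries, that is, all but Aqp4 and Slc1a3. The share of all protein-coding genes within 1 kb was not taken. Of the 137 regions in the 9 windows, 55 were called in all 6 libraries (40.1%, against 33.4% of all merged regions), 35 in 1 library only (25.5% against 29.7%), and 37 in other mixtures. In the windows 8 regions were DIFF-only, with a peak in all 3 DIFF and in no PROLIF library (5.84%, against 3.47% of all regions), and 2 were PROLIF-only (1.46% against 1.78%). Aqp4 held 3 of the 8 DIFF-only regions, Aldh1l1 and Slc1a2 held 2 each and Aldoc held 1. Gfap, S100b, Slc1a3, Gja1 and Fabp7 held none.

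In the 9 windows together the PROLIF libraries had 95, 69 and 73 peaks (replicates 1, 2 and 4) and the DIFF libraries 98, 89 and 109. The groups overlapped, since PROLIF replicate 1 exceeded DIFF replicate 2. The mean was 79.0 ± 14.0 (SD, n = 3) in PROLIF and 98.7 ± 10.0 (SD, n = 3) in DIFF, a difference of 19.7 peaks (two-sided exact permutation test over libraries, p = 0.2). Per 10000 peaks of the same list, the windows held 11.5, 10.4 and 12.2 in PROLIF and 13.7, 12.6 and 12.4 in DIFF. By share the groups no longer overlapped, and the difference of 1.57 per 10000 gave an exact permutation p of 0.1, the smallest that 3 against 3 libraries allows. Within the lower and the higher input numbers the share differed by 1.92 and 2.13 per 10000.

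**Figure D1:**
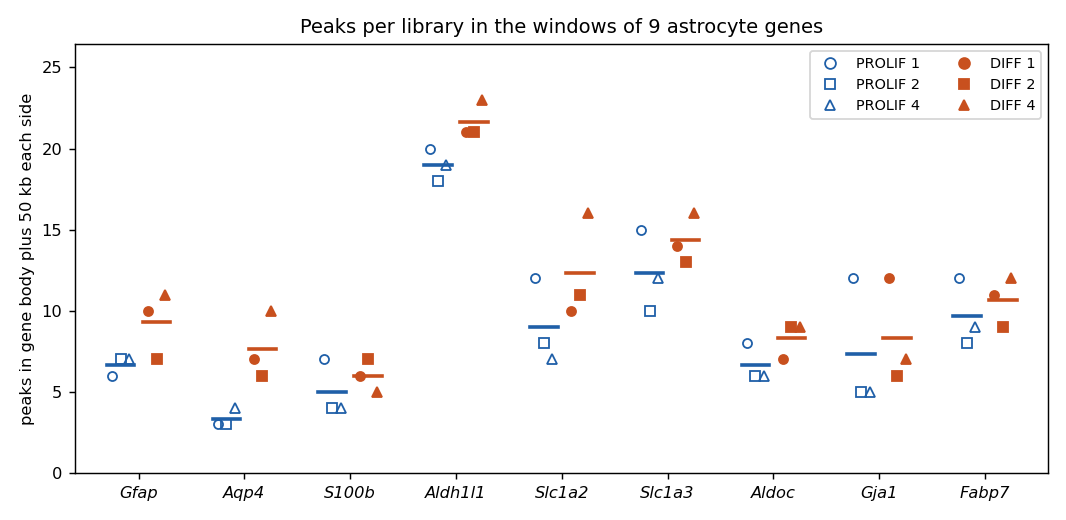
Number of peaks (vertical axis) in the gene body plus 50 kb on either side of each of 9 genes (horizontal axis), with 1 symbol per library, open for PROLIF and filled for DIFF, and a bar at each mean of 3. The Aqp4 window held 3 to 4 peaks in PROLIF and 6 to 10 in DIFF, and in the Gja1 window both replicate 1 libraries stood at 12 against 5 to 7 in the others.

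Gfap encodes the intermediate filament protein of astrocytes and of SEZ stem cells. It lies on the minus strand at chr11:102887336-102900912 (GRCm38), and its 13 regions included 6 called in all libraries. The strongest promoter region, chr11:102898191-102898916, lies in an intron of the most upstream annotated transcript, a noncoding one. Its summit is 1361 bp upstream of the start at 102897200 that GENCODE and RefSeq both give for a coding transcript. Its fold enrichment, the peak caller's ratio of reads at the summit to the local background, was 8.44, 8.06 and 6.94 in PROLIF and 8.03, 11.8 and 10.1 in DIFF, so that DIFF replicate 1 fell among the PROLIF values. In its own list, ranked by p-value, the same peak stood at percentile 71.4, 71.2 and 67.1 in PROLIF and 85.1, 90.4 and 90.3 in DIFF. By rank the groups did not overlap, as in 26.0% of all genes with a promoter peak in every library, a difference of 18.6 percentile points (exact permutation p = 0.1, the smallest possible), which was 15.8 and 19.1 points within the lower and the higher input numbers. On quantile-normalised log2 fold enrichment, tested with limma over all 40164 regions called in every library, the difference, DIFF minus PROLIF, was 0.39 ± 0.13 (SE) with a Benjamini-Hochberg adjusted p of 0.0795, which did not pass 0.05.

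This region holds the letters of a STAT site, TTCNNNGAA, of an AP-1 site, TGACTCA, and of an NFI site, TTGGCA, and is shown for that reason. STAT3 binding upstream of Gfap is a textbook step of astrocyte differentiation, and AP-1 letters bind FOS and JUN factors. The stretch printed is chr11:102898588-102898778 (GRCm38, minus strand, the strand of the gene), with all 3 sets of letters in capitals.
Gfap upstream region: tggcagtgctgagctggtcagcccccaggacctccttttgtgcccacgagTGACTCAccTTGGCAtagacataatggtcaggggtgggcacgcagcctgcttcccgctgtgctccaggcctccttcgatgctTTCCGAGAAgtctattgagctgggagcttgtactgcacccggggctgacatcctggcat
The STAT letters TTCCGAGAA lie 1442 bp and the AP-1 letters 1525 bp upstream of the RefSeq start, and a peak covered both in all 6 libraries. The NFI letters lie beside the AP-1 letters. The other matches to TTCNNNGAA within 3 kb of the gene's 5′ end were at 2198 bp upstream and 1802 bp downstream of it, and no library had a peak over either. Within 100 bp of their summits, 6.09% of the 119719 merged regions on assembled chromosomes hold TTCNNNGAA on either strand and 0.0635% hold TTCCGAGAA. The AP-1 letters were found in 5.73% of these regions, the NFI letters TTGGCA in 18.4%, the E-box CAGCTG in 19.7% and CAGATG in 17.3%, the RBPJ letters in 19.2% and the SOX letters ACAAAG in 20.3%. The Gfap region counts toward the STAT shares only, since its AP-1 and NFI letters lie more than 100 bp from its summit. All of these are matches of letters and not measured binding.

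A weaker promoter region of Gfap, chr11:102900930-102901225, has its summit 147 bp upstream of the start of the noncoding transcript. Its fold enrichment was 5.17, 3.52 and 3.61 in PROLIF and 3.5, 5.12 and 3.99 in DIFF, and the groups overlapped (log2 difference 0.17 ± 0.14, adjusted p = 0.499, limma). The sequence within 50 bp of its summit holds CAGCTG, an E-box that bHLH factors bind, in capitals (chr11:102901009-102901109, GRCm38, minus strand).
Gfap distal start: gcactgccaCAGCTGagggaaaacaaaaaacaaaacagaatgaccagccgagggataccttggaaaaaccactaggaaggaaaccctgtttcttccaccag
A peak of 110 bp closer to the coding start, 284 bp upstream of it, was called in DIFF replicate 1 alone, with a fold enrichment of 2.44. In the rest of the window, 1 region passed the limma test. It lies in an exon of the neighbouring gene C1ql1 at chr11:102939171-102939558, 38521 bp upstream of the 5′ end of Gfap, and fell from 5.29, 5.08 and 4.94 in PROLIF to 3.02, 4.04 and 2.57 in DIFF (log2 difference -0.61 ± 0.15, adjusted p = 0.0295). Before normalisation, the log2 difference was -0.76 and -0.66 within the lower and the higher input numbers. Neither group's values entered the other's range. The call was lost when PROLIF replicate 2 or 4, or DIFF replicate 1 or 4, or both replicate 1 libraries were left out, and over 12 alternatives adjusted p ran from 0.0241 to 0.116.

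Aqp4 encodes the water channel of astrocyte end-feet. It lies on the minus strand at chr18:15389496-15410982 (GRCm38). Its window had the largest difference in peak count of the 9, but not with 20 kb flanks, among the strongest 20000 peaks, or without PROLIF replicate 1 or both replicate 1 libraries. The window held 3, 3 and 4 peaks in PROLIF and 7, 6 and 10 in DIFF. The groups did not overlap, and the difference of 4.33 peaks gave an exact permutation p of 0.1, the smallest possible. Over the windows of all protein-coding genes, 7.94% had every DIFF count above every PROLIF count and 1.52% the reverse, and adjusted over all of them p was 1.0 for Aqp4. As a share of the list the groups did not overlap either (8.89% of all windows, with 9.08% the reverse, adjusted p = 0.557), and the count differed by 3.5 and 5.0 peaks within the lower and the higher input numbers.

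The 3 DIFF-only regions of Aqp4 stood upstream of the gene, with no peak in any PROLIF library. The nearest, chr18:15421129-15421857, lies 10498 bp upstream of the 5′ end in an exon of the noncoding gene AC133525.2 and had a fold enrichment of 8.63, 10.4 and 10.7 in the DIFF libraries. The next, chr18:15433804-15434269, is intergenic at 23145 bp and had 6.04, 7.58 and 4.14. The farthest, chr18:15441821-15442163, is intergenic at 30982 bp and had 7.73, 9.10 and 7.70. These were peaks of middling to high rank, at percentile 73.7 to 83.0, 44.8 to 60.9 and 68.8 to 73.5 of their lists. Of all protein-coding windows, 1.42% held at least 3 DIFF-only regions and 24.1% at least 1.

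All 3 regions remained DIFF-only when peaks with q of at least 0.01 were dropped and when each list was shortened to the 60006 strongest peaks. Among the 20000 strongest peaks of each list, the nearest still had a peak in every DIFF and no PROLIF library, and the other two did not. Where peaks had to cover 50% of a region, the middle one was lost, with 48.9% covered in DIFF replicate 1. The letters TTCNNNGAA were found within 100 bp of the summit in 4 of the 8 DIFF-only regions of the 9 genes, and in 8.22% of the 4161 DIFF-only regions on assembled chromosomes. They were the nearest and the middle region of Aqp4 and both regions of Slc1a2. Those of Slc1a2 were weak and did not remain DIFF-only when peaks with q of at least 0.01 were dropped. No test was made on 8 regions, and the search covered 8 motifs.

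By the 3 kb rule the Aqp4 promoter was open in both states, although not every library had a peak within 1 kb of a start. The region chr18:15404833-15405640, 1544 bp upstream of the start of a coding transcript and inside an intron of longer ones, had a fold enrichment of 15.9, 15.2 and 14.4 in PROLIF and 14.9, 17.6 and 18.2 in DIFF. It had the highest mean percentile of the 9 genes in both states, 95.9 to 96.5 in PROLIF and 98.1 to 99.2 in DIFF, although Fabp7 ranked above it in both replicate 1 libraries. The ranks did not overlap (difference 2.20 points, exact permutation p = 0.1), whereas the enrichments did (log2 difference 0.17 ± 0.12, adjusted p = 0.396, limma). A second promoter region, chr18:15406818-15407119, was weak and was called in PROLIF replicates 2 and 4 and DIFF replicates 1 and 4, with a fold enrichment of 2.50 to 3.32.

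**Figure D2:**
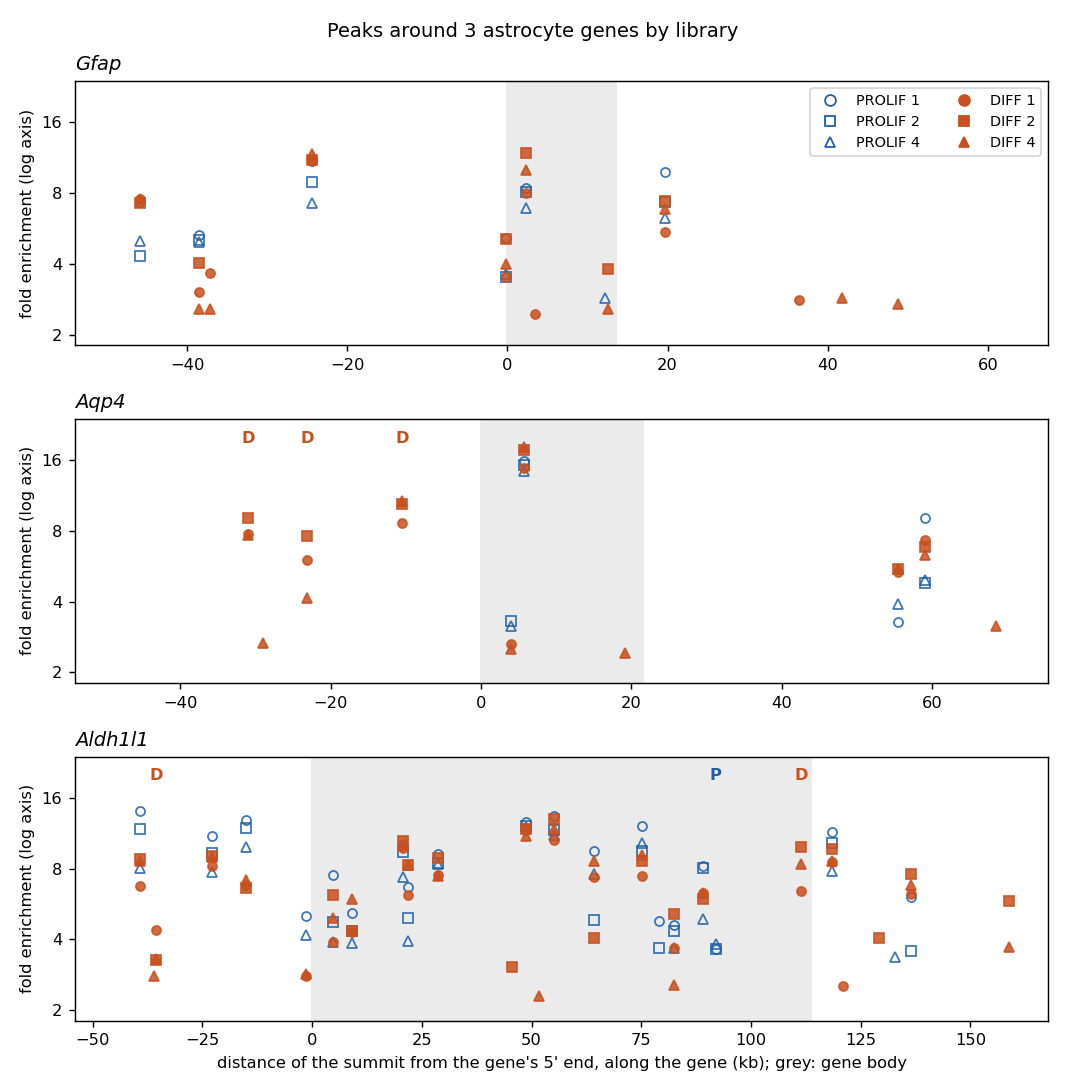
Fold enrichment of each peak (vertical log axis) against the distance of its summit from the 5′ end of the gene in kb along the direction of transcription (horizontal axis), for Gfap, Aqp4 and Aldh1l1, with grey over the gene body, open symbols for PROLIF and filled symbols for DIFF libraries. D marks the regions called in all DIFF and no PROLIF libraries and P the reverse, and Aqp4 has 3 marked D upstream of its start, with 4.14 to 10.7-fold enrichment.

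S100b encodes a calcium-binding protein that astrocytes secrete. It lies on the plus strand at chr10:76253853-76261159 (GRCm38), outside the stretch of the chromosome raised in replicate 1 that is described with Gja1. The region at its start, chr10:76253412-76253928, with its summit 60 bp upstream, had a fold enrichment of 3.51, 4.3 and 3.92 in PROLIF and 3.44, 5.10 and 3.94 in DIFF, with no separation (log2 difference 0.13 ± 0.16, adjusted p = 0.684). A region 1935 bp downstream of the start, chr10:76255690-76255864, had 5.08, 4.28 and 4.77 in PROLIF and 5.46, 5.09 and 6.75 in DIFF, which did not overlap but did not pass the test either (0.37 ± 0.16, adjusted p = 0.173). By the rank of the better of these peaks in its list, PROLIF stood at percentile 46.0, 35.1 and 38.4 and DIFF at 61.3, 48.0 and 73.7, a difference of 21.1 points (exact permutation p = 0.1). A further peak 2797 bp upstream was called in PROLIF replicate 1 alone, with a fold enrichment of 4.08.

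Deeper in the gene the direction was the opposite. An intronic region of S100b 4353 bp downstream of the start, chr10:76257790-76258307, had a fold enrichment of 5.55, 5.99 and 4.05 in PROLIF and 3.08, 3.40 and 2.80 in DIFF. The groups did not overlap, and the region fell by 0.63 ± 0.14 on the log2 scale (adjusted p = 0.019, limma). Before normalisation, the log2 difference was -0.62 and -0.96 within the lower and the higher input numbers. The call was lost without any 1 of the DIFF libraries, without both replicate 1 libraries and on the rank scale, and over 11 alternatives adjusted p ran from 0.0126 to 0.0929. The sequence around its summit, chr10:76258156-76258256 (GRCm38, plus strand), is shown because it is 1 of the 3 regions in the windows that fell; capitals mark TGCCAA, which on the other strand reads TTGGCA, the letters that NFI factors bind.
S100b intron: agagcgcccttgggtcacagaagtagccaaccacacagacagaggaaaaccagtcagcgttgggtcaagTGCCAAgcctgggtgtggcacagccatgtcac

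Aldh1l1 encodes the folate enzyme 10-formyltetrahydrofolate dehydrogenase, a widely used pan-astrocyte marker. It lies on the plus strand at chr6:90486427-90600203 (GRCm38) and had the most regions of the 9 genes, 28, with 15 called in all libraries. The window held 20, 18 and 19 peaks in PROLIF and 21, 21 and 23 in DIFF. As for Aqp4, the counts did not overlap (difference 2.67, exact permutation p = 0.1), but the shares of the lists did, at 2.42 to 3.17 per 10000 in PROLIF and 2.61 to 2.97 in DIFF. The promoter region chr6:90550504-90551284, 42 bp upstream of the RefSeq start, varied more between replicates than between states, with a fold enrichment of 9.50, 4.82 and 7.61 in PROLIF and 7.36, 4.04 and 8.58 in DIFF. Its log2 difference was -0.07 ± 0.32 (adjusted p = 0.926), and both replicate 2 libraries were the lowest of their state. The 3 other promoter regions of Aldh1l1 were weak, with a fold enrichment of at most 5.14, and 1 of them was called in all libraries.

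Of the 6 regions that passed the limma test in the 9 windows, 1 upstream of Aldh1l1 passed under every alternative run. The region chr6:90470840-90471914, 15079 bp upstream of the 5′ end in an intron of Klf15, had a fold enrichment of 12.9, 12 and 9.94 in PROLIF and 6.81, 6.60 and 7.18 in DIFF. Every DIFF value lay below every PROLIF value. The region fell by 0.70 ± 0.13 on the log2 scale (adjusted p = 0.00753, limma) and passed in all 12 alternatives, with adjusted p from 0.00709 to 0.038. Before normalisation, the log2 difference within the lower and the higher input numbers was -0.73 and -0.80. Klf15, which encodes a zinc-finger transcription factor, holds the region, and which gene it acts on was not measured. Its summit sequence, chr6:90471298-90471398 (GRCm38, plus strand), holds the STAT letters TTCCTAGAA, and capitals also mark the overlapping CATCTG of an E-box and TGGGAA of an RBPJ site, and CTTTGT, which on the other strand reads ACAAAG, the letters of a SOX site.
Aldh1l1 upstream region: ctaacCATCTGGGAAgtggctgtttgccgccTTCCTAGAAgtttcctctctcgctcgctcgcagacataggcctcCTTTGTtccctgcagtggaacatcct

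Inside the gene, 1 region passed the limma test. The intronic region chr6:90508059-90508653, 21892 bp downstream of the 5′ end, had a fold enrichment of 6.66, 4.91 and 3.94 in PROLIF and 6.20, 8.27 and 8.33 in DIFF. DIFF replicate 1 lay below PROLIF replicate 1, so the groups overlapped before normalisation, and after it the region rose by 0.65 ± 0.14 on the log2 scale (adjusted p = 0.0158). Before normalisation, the log2 difference was 0.28 within the lower and 0.76 within the higher input numbers. The call was lost without PROLIF replicate 4 or DIFF replicate 4 and on the rank scale, and over 12 alternatives adjusted p ran from 0.0131 to 0.0656.

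Aldh1l1 had 2 DIFF-only regions. The one near the 3′ end of the gene, chr6:90597569-90598126, is in an intron 111421 bp from the 5′ end, close to the start of the noncoding gene Gm15756, and had a fold enrichment of 6.43, 9.87 and 8.35 in DIFF, at percentile 67.3 to 80.5. It remained DIFF-only in lists of equal length, but not among the strongest 20000 peaks or where peaks had to cover 50% of a region. It is shown as the strongest such region outside the Aqp4 window (chr6:90597798-90597898, GRCm38, plus strand). None of the motifs searched was found within 50 bp of its summit, and the NFI letters were found within 100 bp.
Aldh1l1 DIFF-only region: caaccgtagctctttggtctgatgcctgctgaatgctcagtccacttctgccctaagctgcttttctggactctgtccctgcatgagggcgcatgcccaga
The other, chr6:90450691-90451015, is intergenic 35528 bp upstream, with a fold enrichment of 4.4, 3.25 and 3.31. A PROLIF-only region of the same gene, chr6:90578180-90578411, 91944 bp downstream, had 3.65, 3.65 and 3.82 in PROLIF, near the weak end of the lists (percentile 22.1 to 24.7), and was not kept as PROLIF-only in lists of equal length.

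Slc1a2 and Slc1a3 encode the glutamate transporters GLT-1 and GLAST, which clear glutamate from synapses. GLAST is the form of radial glia and neural stem cells as well as astrocytes, and GLT-1 rises as astrocytes mature. Slc1a2 lies on the plus strand at chr2:102658659-102790784 (GRCm38). Its promoter region at the 5′ end, chr2:102658337-102659667, had a fold enrichment of 9.28, 6.67 and 9.24 in PROLIF and 7.19, 5.95 and 6.91 in DIFF, and the groups overlapped (log2 difference -0.25 ± 0.19, adjusted p = 0.455). The promoter at a start deep in the gene, chr2:102759319-102760003, was called in 1 PROLIF library (replicate 1, 4.53) and in all 3 DIFF libraries (7.71, 6.89 and 6.99). The 2 remaining promoter regions of Slc1a2 were called in 1 or 2 libraries, with a fold enrichment of at most 4.78.

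The region of Slc1a2 that passed the limma test lay in an intron. The region chr2:102745247-102746094, 87041 bp downstream of the 5′ end and near the start of the noncoding gene Gm13872, had a fold enrichment of 9.51, 9.58 and 9.05 in PROLIF and 11.6, 15.2 and 13.6 in DIFF. Every DIFF value exceeded every PROLIF value, and the region rose by 0.55 ± 0.13 on the log2 scale (adjusted p = 0.0257, limma). Before normalisation, the log2 difference was 0.32 and 0.58 within the lower and the higher input numbers. The call was lost without PROLIF replicate 1, without any 1 of the DIFF libraries or without both replicate 1 libraries, and over 12 alternatives adjusted p ran from 0.0122 to 0.0945. Its summit sequence, chr2:102745650-102745750 (GRCm38, plus strand), is shown as the region with the highest DIFF enrichment among those that rose. None of the motifs searched was found within 50 bp of the summit, and the SOX letters ACAAAG were found within 100 bp.
Slc1a2 intron: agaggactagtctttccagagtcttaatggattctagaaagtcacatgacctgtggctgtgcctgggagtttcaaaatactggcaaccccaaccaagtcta

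Both DIFF-only regions of Slc1a2 were weak. The region chr2:102635440-102635739, 23071 bp upstream at an exon and start of the neighbouring gene Pamr1, had a fold enrichment of 2.59, 3.54 and 2.42. The region chr2:102663469-102663680, 4915 bp downstream in an intron, had 2.35, 3.22 and 2.79. Neither remained DIFF-only when peaks with q of at least 0.01 were dropped.

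Slc1a3 lies on the minus strand at chr15:8634124-8710764 (GRCm38), with 8 of 19 regions called in all libraries. The region chr15:8705837-8707097, whose edge lies within 3 kb of an internal start, had a fold enrichment of 10.2, 9.04 and 8.02 in PROLIF and 8.06, 7.53 and 7.81 in DIFF (log2 difference -0.16 ± 0.13, adjusted p = 0.471). The region at the 5′ end, chr15:8710182-8710947, was called in every library but PROLIF replicate 2, with a fold enrichment of 3.40 to 5.94. A PROLIF-only region, chr15:8741531-8741937, 31001 bp upstream, had 3.70, 3.13 and 3.90 in PROLIF, at percentile 6.48 to 20.5, and was not kept in lists of equal length. No shared region of Slc1a3 passed the limma test; the largest difference was -0.48 ± 0.17 (adjusted p = 0.0911), 45827 bp upstream.

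Aldoc encodes the brain form of the glycolytic enzyme aldolase, enriched in astrocytes. It lies on the plus strand at chr11:78322968-78327781 (GRCm38), in a gene-dense stretch that it shares with Spag5, Pigs and Unc119. Its start region, chr11:78322404-78323547, had a fold enrichment of 6.09, 6.82 and 5.94 in PROLIF and 5.96, 6.20 and 6.41 in DIFF (log2 difference 0.05 ± 0.15, adjusted p = 0.87). A region 3055 bp beyond its last annotated start, chr11:78328099-78328922, which is also the start of Pigs, had 11.4, 5.52 and 6.58 in PROLIF and 7.97, 11 and 9.16 in DIFF (0.36 ± 0.19, adjusted p = 0.253). A small region over an internal start, chr11:78324098-78324376, was called in PROLIF replicate 1 and in all DIFF libraries, with a fold enrichment of 2.79 to 3.84. The rank of the best promoter peak was 82.3, 63.5 and 60.2 in PROLIF and 83.8, 86.2 and 85.9 in DIFF. This best rank did not overlap (difference 16.7 points, exact permutation p = 0.1), although PROLIF replicate 1 lay close to the DIFF libraries. In every library but PROLIF replicate 2 it was the rank of the region at the start of Pigs. The start region of Aldoc itself stood at percentile 58.4, 63.5 and 56 in PROLIF and 74.9, 67 and 77.2 in DIFF.

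In the Aldoc window, 20497 bp downstream of the 5′ end at the start of Unc119, the region chr11:78343258-78344162 rose from 4.14, 4.82 and 3.37 in PROLIF to 5.35, 5.37 and 6.62 in DIFF (log2 difference 0.60 ± 0.17, adjusted p = 0.0427, limma). Before normalisation, the log2 difference within the lower and the higher input numbers was 0.52 and 0.31. The groups did not overlap, but the call held in 4 of 12 alternatives, with adjusted p from 0.0255 to 0.191. It was lost under median centring, on the rank scale, with the replicate block, and without either or both replicate 1 libraries, PROLIF replicate 4 or DIFF replicate 4. The DIFF-only region chr11:78360556-78360760, in an intron of Foxn1 37744 bp downstream, had a fold enrichment of 4.75, 4.04 and 3.99.

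Gja1 and Fabp7 lie on chromosome 10 in a stretch where both replicate 1 libraries had more peaks than the others. Gja1 encodes connexin 43, the main gap junction protein of astrocytes, and Fabp7 the brain lipid-binding protein of radial glia and stem cells. In the 1 Mb bin with Gja1, PROLIF replicate 1 had 97 peaks against 27 and 23 in replicates 2 and 4, and DIFF replicate 1 had 100 against 32 and 33. As shares of their lists, replicate 1 stood 2.97 times higher in PROLIF and 3.39 times higher in DIFF than the mean of replicates 2 and 4. Around Fabp7 the ratios were 2.36 and 3.89, and around the other 7 genes, S100b on the same chromosome included, they lay between 0.867 and 1.12. The part of this difference in the results for Gja1 and Fabp7 was not tested.

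**Figure D3:**
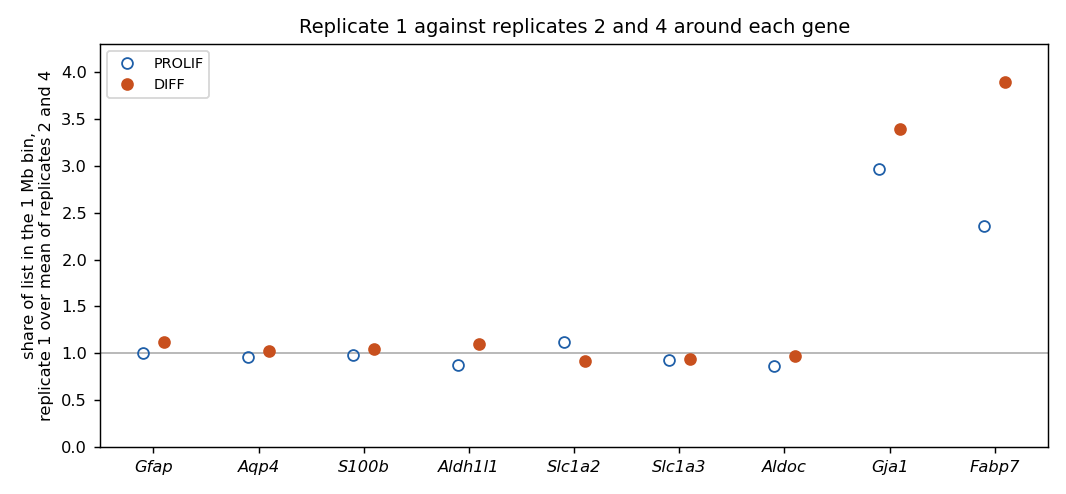
Share of a list's peaks in the 1 Mb bin that holds each gene, as the ratio of replicate 1 to the mean of replicates 2 and 4 (vertical axis), for 9 genes (horizontal axis), with PROLIF open and DIFF filled. The ratios were 2.36 to 3.89 at Gja1 and Fabp7 and 0.867 to 1.12 at the other genes.

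The Gja1 window held 12, 5 and 5 peaks in PROLIF and 12, 6 and 7 in DIFF, so that the replicate 1 libraries of both states stood above all others. Of its 14 regions, 3 were called in both replicate 1 libraries and in no other (21.4%), and of the 15 regions of Fabp7, 1 was (6.67%). No such region was found at the other 7 genes, and 0.742% of all regions were of this kind. The Fabp7 window held 12, 8 and 9 peaks in PROLIF and 11, 9 and 12 in DIFF. Without these genes the windows of the other 7 held 71, 56 and 59 peaks in PROLIF and 75, 74 and 90 in DIFF, which did not overlap (difference 17.7, exact permutation p = 0.1). Leaving them out was decided after the data were seen, and with all 9 genes the counts overlapped. These counts were not divided by list length. Of single protein-coding windows, 7.94% had every DIFF count above every PROLIF count, and no such share was taken for sets of 7 windows.

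At their promoters neither gene passed the test between states. Gja1, on the plus strand at chr10:56377330-56402513 (GRCm38), had a wide promoter region, chr10:56377162-56379395, with a fold enrichment of 5.92, 6.20 and 6.96 in PROLIF and 5.61, 6.38 and 5.27 in DIFF (log2 difference -0.08 ± 0.17, adjusted p = 0.83). Fabp7, on the plus strand at chr10:57784881-57788450 (GRCm38), had a promoter region, chr10:57783325-57785286, with 9.35, 8.94 and 8.48 in PROLIF and 7.15, 8.0 and 8.49 in DIFF (-0.13 ± 0.13, adjusted p = 0.601). The Fabp7 peak ranked at percentile 89.2 to 99.3, next to Aqp4 by mean percentile in both states, and within each state it was highest in replicate 1.

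**Figure D4:**
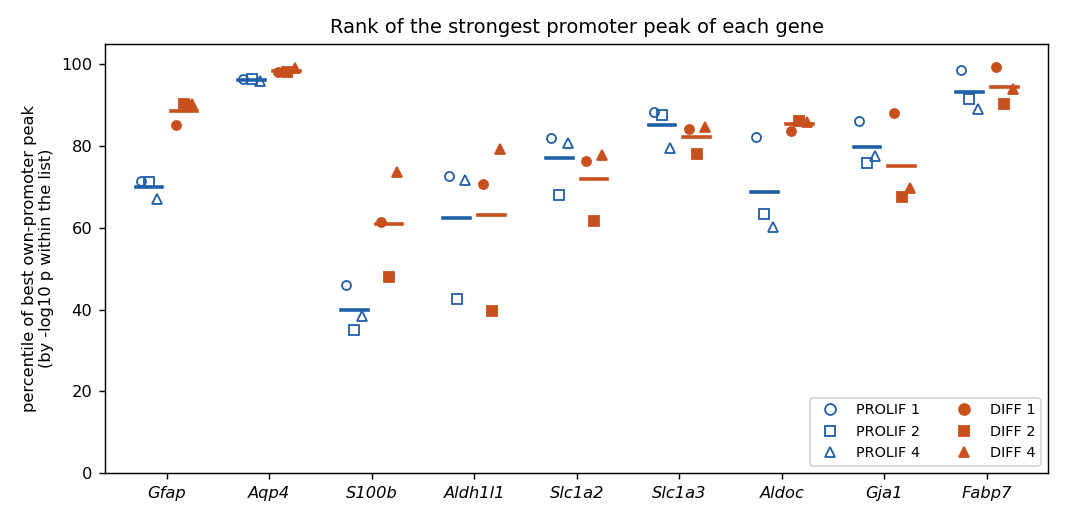
Percentile of the strongest promoter peak of each gene within its list, ranked by -log10 p (vertical axis), for 9 genes (horizontal axis), 1 symbol per library and a bar at each mean of 3. PROLIF and DIFF did not overlap for Gfap, Aqp4, S100b and Aldoc, and overlapped for the other 5 genes, and DIFF stood wholly above PROLIF in 26.0% of all protein-coding genes with a promoter peak in every library. For Aldoc the peak shown lies at the start of Pigs in every library but PROLIF replicate 2.

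By promoter rank, every DIFF library stood above every PROLIF library in Gfap, Aqp4, S100b and Aldoc, and in Aldh1l1, Slc1a2, Slc1a3, Gja1 and Fabp7 the states overlapped. For Aldoc the ranked peak was the one at the start of Pigs in every library but PROLIF replicate 2. Of the 14126 protein-coding genes with a promoter peak in all libraries, 26.0% had every DIFF rank above every PROLIF rank and 4.79% the reverse. The mean percentile over the 9 genes was 80.5, 70.2 and 73.4 in PROLIF and 83.0, 73.3 and 83.8 in DIFF. The groups overlapped, and the difference was 5.35 points (exact permutation p = 0.3). It was 6.07 and 8.32 points within the lower and the higher input numbers.

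Among the 55 regions called in all libraries, 3 rose and 3 fell, 5.45% each. Over all 40164 such regions 5.91% rose and 7.71% fell, so the 9 windows held called changes at about the share of the background. Those that rose were in introns of Aldh1l1 and Slc1a2 and at the start of Unc119 near Aldoc. Those that fell were in an intron of Klf15 near Aldh1l1, in an intron of S100b and in an exon of C1ql1 near Gfap. None of these 6 regions lay within 3 kb of a start of the 9 genes. The median log2 difference was -0.06 over the 55 regions, of which 43.6% were positive, and 0.03 over all 40164, of which 54.4% were positive.

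**Figure D5:**
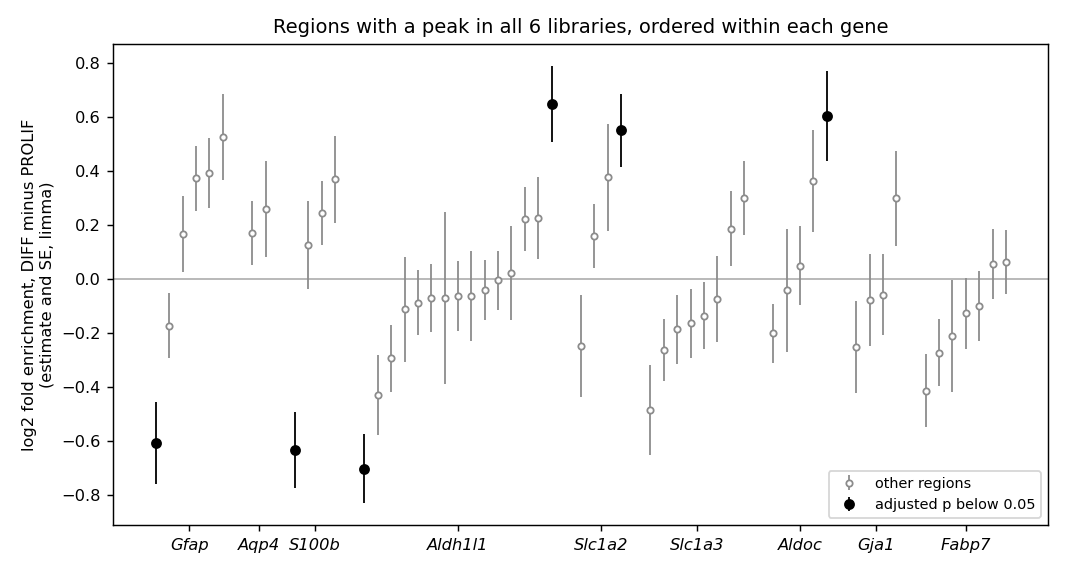
Log2 difference in fold enrichment, DIFF minus PROLIF, with its standard error (vertical axis), for the 55 regions called in all 6 libraries, ordered by value within each gene (horizontal axis). Filled points passed an adjusted p of 0.05 (limma), 3 above and 3 below 0, and lay between -0.70 and 0.65.

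The regions of 1 state and of 1 library ranked below the shared ones, and a smaller share of them lay near a start site. A shared region had to pass the peak threshold in every library, so the order of ranks was in part set by these classes. The median percentile was 75.2 for the 55 shared regions, 40.7 for the 10 state-only regions and 10.9 for the 35 regions of 1 library. A start site of some gene was 3 kb or less away for 47.3% of the shared, 20.0% of the state-only and 28.6% of the 1-library regions. DIFF replicate 4, which had the longest list, gave 11 of the 35 regions called in 1 library, and PROLIF replicate 1 and DIFF replicate 1 gave 9 each. Of all 35644 merged regions called in 1 library, DIFF replicate 4 gave 10770, PROLIF replicate 1 gave 10095 and DIFF replicate 1 gave 4256. In the Gja1 and Fabp7 windows, where replicate 1 was raised, lay 5 of the 9 of PROLIF replicate 1 and 3 of the 9 of DIFF replicate 1. Of the 8 DIFF-only regions, 6 were more than 3 kb from any start site, as were 80.4% of all 4164 DIFF-only regions.

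Beyond the 9, 48 other genes of astrocyte biology were examined at their promoters, grouped as transcription factors, transporters and channels, metabolic genes, secreted and matrix genes, receptors and filaments, and reactive genes. A promoter peak was called in all 6 libraries for 41 of the 48 (85.4%), including all 8 transcription factors, Sox9, Nfia, Nfib, Nfix, Stat3, Id3, Hes5 and Hopx, and in no library for Gjb6, which encodes connexin 30, and Lcn2, a marker of reactive astrocytes. None had a promoter open in 1 state only (0.374% of all genes for DIFF, 0.228% for PROLIF). Of the 41 promoter regions tested, 4 rose and 3 fell in DIFF, where 3.78% and 3.89% of all shared promoter regions did.

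Among those that rose were the promoters of Apoe, Ndrg2 and Mlc1. Apoe, the lipid carrier that astrocytes secrete, had a fold enrichment of 6.78, 3.43 and 3.76 in PROLIF and 6.99, 7.62 and 6.95 in DIFF (log2 difference 0.80 ± 0.17, adjusted p = 0.016). Every DIFF value exceeded every PROLIF value. Ndrg2 rose by 0.51 ± 0.14 (adjusted p = 0.043) and Mlc1, a membrane protein of astrocyte end-feet, by 0.42 ± 0.11 (adjusted p = 0.0397).

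The 3 that fell were Cd44, Clu and Tnc. Cd44, a hyaluronan receptor, had 12.5, 11.2 and 10.8 in PROLIF and 7.05, 7.13 and 6.67 in DIFF (-0.67 ± 0.12, adjusted p = 0.00734). Clu, which encodes the chaperone clusterin, had 9.52, 6.91 and 8.21 in PROLIF and 4.71, 5.56 and 4.36 in DIFF (-0.68 ± 0.14, adjusted p = 0.0118), and Tnc, which encodes tenascin C, had a log2 difference of -0.49 ± 0.12 (adjusted p = 0.0269). No transcription factor of the list passed the test. With 1 library left out at a time, the fits called 0 to 2 promoters of the list higher in DIFF and 2 higher in PROLIF.

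The promoter ranks most like those of Gfap over the 6 libraries, by Euclidean distance of percentiles among 49 genes with a promoter peak in all of them, were those of Ndrg2 (10.5 percentile points), Acsl6 (13.4) and Mlc1 (13.6). Ndrg2 stood at 70.3, 70.1 and 64.4 in PROLIF and 94.4, 90.6 and 94.1 in DIFF.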

How the data were processed

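ATAC-seq libraries of 3 PROLIF and 3 DIFF cultures were analysed, grouped by the treatment given in the labels. Per the study's methods, the authors clipped adapters with Cutadapt, removed reads under 20 bases with Trimmomatic and mapped the rest with Bowtie2 (GRCm38, mm10). Duplicates were then flagged by Picard, and MACS2 was run on each library for narrow peaks at a false discovery rate of 0.05. Versions, the read shift or extension and the use of a blacklist are not given in the sources used here, and where reads were shifted or extended decides peak edges and summits. For each peak the deposited lists hold a fold enrichment (a ratio of pileup to local background), −log10 p-values and −log10 q-values, an integer score, which was not used, and the summit offset. Read counts per region were not analysed here, so the depth of a region outside a peak is unknown.

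Here, peaks overlapping by 1 bp were merged over the 6 lists, and regions were assigned to genes by GENCODE M21, of the build of the peaks. A promoter peak lies within 3 kb of an annotated start of the gene. Peaks were ranked within each list by −log10 p. Window counts, shares and ranks were compared by two-sided exact permutation over libraries, where the smallest p is 0.1. For the 40164 regions with a peak in all 6 libraries, log2 fold enrichment was quantile-normalised and tested with limma 3.58.1 in R 4.3.3, adjusted by Benjamini-Hochberg over all of them. On simulated data of the same size, with 200 regions shifted by each amount, the test recovered 68.5% of shifts of 1 on the log2 scale. Of shifts of 0.5 it recovered 4.5%. The simulation gave 152 calls, where the real fit called 2372 regions higher in DIFF and 3097 higher in PROLIF. With more calls the adjusted threshold is less strict, so these rates do not give the power in the real data. The p-values rest on the variation between these libraries. Background pileup was solved from the fold enrichment and p-value of each peak, where at least 99.98% of the peaks solved in each list gave a whole number of reads within 0.02.

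Every annotated start of each gene was used. The text names all 9 genes, their promoter regions, the regions open in 1 state only and the regions that passed limma, and of the other astrocyte genes those that passed at the promoter or had no promoter peak, except that some genes are not reported here. Genes and lists were chosen with earlier results of these data known. Of the sequences, the longer Gfap stretch and the choice among the others were made after values were seen. On either strand, up to 100 bp from the median summit, regions were scanned for the letters of AP-1 (TGACTCA), NFI (TTGGCA), STAT (TTCNNNGAA), SOX (ACAAAG and also ACAATG), RBPJ (TGGGAA) and bHLH (CAGATG and also CAGCTG) sites, with sequence from RefSeq's GRCm38. The alternatives tried were other peak thresholds, list lengths, flanks, promoter distances and normalisations, a replicate block, and leaving out each library in turn, and, added after the data were seen, both replicate 1 libraries or Gja1 and Fabp7.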

Additional observations from a re-analysis of the deposited data

How the results depend on the processing

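Over the alternatives run, the peak count and the share in the 9 windows stayed higher in DIFF (differences of 2.33 to 29.0 peaks and of 0.491 to 2.49 per 10000). Without 1 library in turn they ran from 14.5 to 27.7 peaks and from 1.08 to 1.98 per 10000. For the share, exact permutation p was 0.3 with 20 kb flanks, 0.2 with 100 kb flanks and 0.4 among the strongest 20000 peaks. These exceed the 0.1 of groups that do not overlap. Without 1 library p for the share was 0.1 to 0.2. DIFF-only regions numbered 3 among the strongest 20000 peaks and with 20 kb flanks, 5 where peaks had to cover 50% of a region and 21 without both replicate 1 libraries, and 8 to 15 without 1 library. Of the 8, 1 was kept among the strongest 20000 and 2 at 50% cover, so most regions counted there were others. DIFF-only regions numbered 15 without PROLIF replicate 1 and 14 without DIFF replicate 1. PROLIF-only regions numbered 1 in lists of equal length, among the strongest 20000 peaks and with 20 kb flanks, 0 at 50% cover, and 2 to 3 without 1 library, and neither of the 2 was kept in lists of equal length or among the strongest 20000. Among the strongest 20000 peaks, 3 of the 9 genes and 23 of the 48 other genes had a promoter peak in all libraries (7 and 39 within 1 kb), and the mean promoter percentile difference turned to -2.87; without 1 library it ran from 3.12 to 8.72. State-only promoters among the 48 genes numbered 1 for PROLIF and 2 for DIFF among the strongest 20000, 1 for DIFF in lists of equal length and within 1 kb, and 0 to 1 for either state without 1 library.

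Of shared regions, 0 to 4 rose and 1 to 3 fell without 1 library (0 and 1 without DIFF replicate 4), and 1 rose and 1 fell without both replicate 1 libraries. Without 1 library, 0 to 2 other astrocyte promoters rose. Over all shared regions, 2372 rose and 3097 fell, against 1341 and 1502 on the rank scale, 1209 and 1858 without both replicate 1 libraries, and 1215 to 2050 and 1975 to 2559 without 1 library. Window differences turned to -0.667 for Gfap and Slc1a2 and -0.333 for S100b in lists of equal length, to -1.0 for Slc1a3 and -0.667 for Gja1 among the strongest 20000, and for Gja1, where values without 1 library ran from -0.833 to 3.33, to -0.167 without PROLIF replicate 2 or 4 and -0.833 without DIFF replicate 1. The cause was not tested.

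Whether libraries with the same replicate number pair was checked by the correlation over regions of their deviations from the state mean. It was 0.0732, 0.122 and 0.105 against -0.0922 to -0.00336 for other pairs. Each library correlated best with its own number, but not all passed 0.1. Deviations from a state mean cancel within that state, so positive values for some pairs push others negative. The contrast with other pairs is thus partly built in and does not decide the pairing. With the replicate block, 23 regions were more often called in DIFF and 4 in PROLIF, counting a difference in at least 2 pairs and the opposite in none. The same counts over all merged regions are not given here, so no background share stands beside them. The DIFF list was longer than the PROLIF list for replicate 2 (70728 against 66643 peaks) and replicate 4 (88039 against 60006). For replicate 1 it was shorter (71308 against 82741). The window count, share and promoter percentile gave 19.7, 1.57 and 5.35 (exact sign-flip permutation, p = 0.25, the smallest possible), and limma called 3 regions in either direction. Depth limits what can be said of regions without a peak, which may lie just under the threshold.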
